A study of Mus musculus with 4 samples.

Results

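AP-1 and other immediate early genes were examined for open chromatin in 4 mouse muscles. The 10 genes were Fos, Fosb, Fosl2, Jun, Junb, Jund, Atf3, Egr1, Nr4a1 and Nr4a3, chosen by name, and their members were all ATAC-seq peaks that the authors' annotation assigned to one of them as the gene with the nearest transcription start site (TSS). There were 199 such peaks among the 120839 peaks of the 4 lists, which named 17157 genes in all. ATAC-seq uses the Tn5 transposase to insert sequencing adapters into accessible DNA. The muscles came from wild-type C57BL/6 mice, males of the substrain C57BL/6J in the study's methods. They were 2 mainly fast hindlimb muscles, quadriceps (Quad) and extensor digitorum longus (EDL), the oxidative soleus (Sol) and the diaphragm (Dia). The labels name no treatment or age, and lists of values follow the order EDL, Quad, Sol, Dia. The comparison addresses how open chromatin at these genes differs among muscles of different fibre type and use. For each muscle 1 peak list was analysed here. The labels call each library pooled, without the number of animals, so no replicate spread and no test was available, and every difference below compares 4 libraries. Whole frozen muscle was used, so that fewer cells of a type and less accessibility per cell cannot be told apart.

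Immediate early genes are transcribed within minutes of a stimulus, without new protein synthesis, and in muscle they respond to contraction, stretch, injury and the handling of tissue. Fos and Jun family proteins dimerise through leucine zippers to form AP-1, which binds the palindrome TGACTCA or TGAGTCA. Serum response factor (SRF), which binds the CArG box, and MEF2 factors bound to an AT-rich site are the classical signal-responsive regulators of several of these genes.

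The sequences below are shown because they hold such a site inside a peak of an immediate early gene. All were read from RefSeq GRCm38.p6, the assembly of mm10, in the direction of the gene, and coordinates are 1-based. Distances of a motif are from the RefSeq TSS to its centre. Capitals mark a CArG box in the Fos and Fosb promoter peaks of Quad, in the upstream Junb peak of Sol and in 30 bases of the EDL peak behind Junb, as follows.
Fos promoter, chr12:85473473-85473661, plus strand: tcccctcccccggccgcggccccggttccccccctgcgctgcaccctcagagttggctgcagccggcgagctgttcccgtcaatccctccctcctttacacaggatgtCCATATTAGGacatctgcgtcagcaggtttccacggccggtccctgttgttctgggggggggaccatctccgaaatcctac
Fosb promoter, chr7:19310278-19310466, minus strand: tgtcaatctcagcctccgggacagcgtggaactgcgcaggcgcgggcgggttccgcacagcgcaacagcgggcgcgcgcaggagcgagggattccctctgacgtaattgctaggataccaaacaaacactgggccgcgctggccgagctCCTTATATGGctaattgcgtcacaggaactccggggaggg
Junb upstream, chr8:84980113-84980319, minus strand: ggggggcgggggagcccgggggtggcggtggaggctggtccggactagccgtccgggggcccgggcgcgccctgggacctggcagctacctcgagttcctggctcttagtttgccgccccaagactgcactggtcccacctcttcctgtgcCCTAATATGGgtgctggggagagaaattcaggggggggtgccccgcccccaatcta
Junb gene end, chr8:84976614-84976643, minus strand: gaagctctgcCCATATATGGgcctattcag
Capitals mark MEF2 motifs in the next 4 sequences, from the Jun promoter peak of Quad, cut at the RefSeq start, from the Atf3 promoter peak of EDL, cut at the GENCODE vM21 start, which lies 7 bp upstream of the RefSeq one, and from the promoter peak and a more distant peak of Nr4a1 in EDL.
Jun promoter, chr4:95052223-95052272, minus strand: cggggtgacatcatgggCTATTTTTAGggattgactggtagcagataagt
Atf3 promoter, chr1:191183341-191183461, minus strand: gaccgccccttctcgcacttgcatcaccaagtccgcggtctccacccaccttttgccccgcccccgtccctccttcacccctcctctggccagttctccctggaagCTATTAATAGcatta
Nr4a1 promoter, chr15:101266478-101266686, plus strand: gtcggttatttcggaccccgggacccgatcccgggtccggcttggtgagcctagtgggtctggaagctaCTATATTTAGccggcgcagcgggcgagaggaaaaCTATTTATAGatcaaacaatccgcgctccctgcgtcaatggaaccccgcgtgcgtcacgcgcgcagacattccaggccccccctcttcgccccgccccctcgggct
Nr4a1 distal, chr15:101253986-101254194, plus strand: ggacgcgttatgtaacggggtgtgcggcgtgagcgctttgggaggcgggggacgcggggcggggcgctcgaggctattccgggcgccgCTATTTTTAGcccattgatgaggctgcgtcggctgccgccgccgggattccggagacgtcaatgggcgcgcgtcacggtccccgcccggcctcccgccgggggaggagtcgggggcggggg
Capitals mark AP-1 motifs in 30 bases of the Fosl2 promoter peak of EDL and in the distal Fosb peak of Quad, and the cyclic AMP response element (CRE) TGACGTCA in 30 bases of the Jund peak of Dia.
Fosl2 promoter, chr5:32135843-32135872, plus strand: tgccattgtagTGACTCAtctcgggcagag
Fosb distal, chr7:19327200-19327388, minus strand: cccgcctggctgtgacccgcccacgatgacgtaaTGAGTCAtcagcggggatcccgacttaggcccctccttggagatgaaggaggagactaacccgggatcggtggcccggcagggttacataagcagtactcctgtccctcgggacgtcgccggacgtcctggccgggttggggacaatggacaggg
Jund downstream, chr8:70698724-70698753, plus strand: ccccacccccaTGACGTCAacccacaatgc
The Junb sequences, the distal Nr4a1 sequence and the Jund sequence lie outside promoter peaks and were chosen after their values were seen.

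The EDL list held 59 peaks of the 10 genes, against 56 for Quad, 47 for Sol and 37 for Dia. By nearest-TSS assignment these genes were rich in peaks. The median gene named in any list held 1 peak in each muscle. The median immediate early gene held 4.5, 4.5, 4 and 3.5 in EDL, Quad, Sol and Dia. Peaks farther than 50 kb made up 32.2%, 30.4%, 25.5% and 27.03% of those of the 10 genes, against 20.05%, 23.03%, 20.9% and 16.3% of the lists. Within 50 kb of the TSS the 10 genes held 40, 39, 35 and 27 peaks. Whether they were richer than other genes at that distance was not tested. At least 5 peaks were assigned to 5, 5, 4 and 3 of the 10 genes, against 7.85%, 12.8%, 6.64% and 2.83% of all genes. Jun was the richest, with 13, 13, 11 and 8 peaks, and Fos followed with 12, 9, 9 and 7. Fosl2 held 9, 8, 5 and 4 peaks in the same order of muscles. Dia had the fewest peaks of these genes and also the shortest list, at 21582 peaks against 30136 in EDL, 40337 in Quad and 28784 in Sol. As a share of its list, the peaks of the 10 genes made up 0.196% in EDL, against 0.139% for Quad, 0.163% for Sol and 0.171% for Dia, so that Dia lay above Quad and Sol by this measure. When every list was shortened to its top 20000 peaks by score, the 10 genes held 41, 41, 43 and 35, so that EDL was not the highest at equal list length and the gap to Dia was smaller. In the upper 50% of each list they held 36, 41, 33 and 25, with Quad the highest. The genes at which Dia was not alone in having the fewest peaks were Fosb, with 4, 6, 4 and 5, Jund and Atf3, with 2 in every muscle, and Nr4a1, with 5, 4, 4 and 4. Egr1 held 5, 5, 5 and 3 peaks, Nr4a3 held 4, 4, 4 and 2, and Junb held 3, 3, 1 and none.

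**Figure D1:**
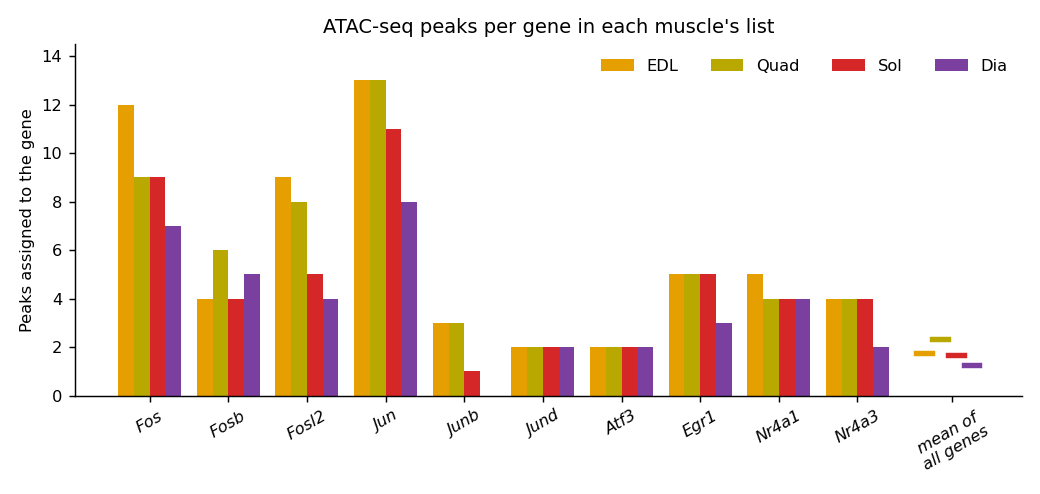
Number of ATAC-seq peaks assigned to each of the 10 genes (bars, vertical axis) in the EDL, Quad, Sol and Dia lists, with the mean over all 17157 named genes as short lines at the right. Jun reaches 13 peaks in EDL and Quad, and Junb has no bar for Dia.

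Most of these peaks lay away from promoters, which in the authors' annotation run from 1 kb before a TSS to 100 bp after it. Promoter peaks made up 15.3% of the peaks of the 10 genes in EDL (95% Wilson interval 8.24 to 26.5%), 16.1% in Quad (8.69 to 27.8%), 17.0% in Sol (8.89 to 30.1%) and 18.9% in Dia (9.48 to 34.2%). The whole lists held 30.7%, 25.5%, 31.9% and 41.3% promoter peaks. Intergenic peaks made up 69.5%, 69.6%, 70.2% and 64.9% of the peaks of the 10 genes, against 29.9%, 31.7%, 30.1% and 26.8% of the lists. In EDL, Sol and Dia the promoter share lay below that of the list by more than the counting interval, and in Quad it did not. Jun and Fosl2 carried much of this distal complement, with 16 and 13 merged regions over 2500 bp from the TSS. Peaks of Jun reached 251 kb upstream and those of Fosl2 204 kb upstream. By contrast, all peaks of Junb and Atf3 lay within 2500 bp.

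Signal at the peaks was compared as a percentile of the peak score within each list, because peak width and threshold were set per library. The score is the number of sequence tags in a peak scaled to library size. The median peak of the 10 genes stood at percentile 73.4, 76.1, 83.1 and 76.4 in EDL, Quad, Sol and Dia. Their promoter peaks had a median percentile of 90.8, 93.6, 88.5 and 87.8, against 76.3, 81.3, 75.7 and 74.1 for all promoter peaks. The upper 10% of scores took in 16 of the 59 EDL peaks, 19 of 56 in Quad, 14 of 47 in Sol and 9 of 37 in Dia. Of these, 6, 6, 4 and 3 lay more than 2500 bp from the TSS, among 41, 38, 31 and 23 peaks at that distance. Of all peaks that far from a TSS, 419 of 18815, 546 of 27133, 359 of 17632 and 165 of 11083 were in the upper 10%. The map of peak positions shows the strongest distal peaks at Fos, Jun and Nr4a1.

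**Figure D2:**
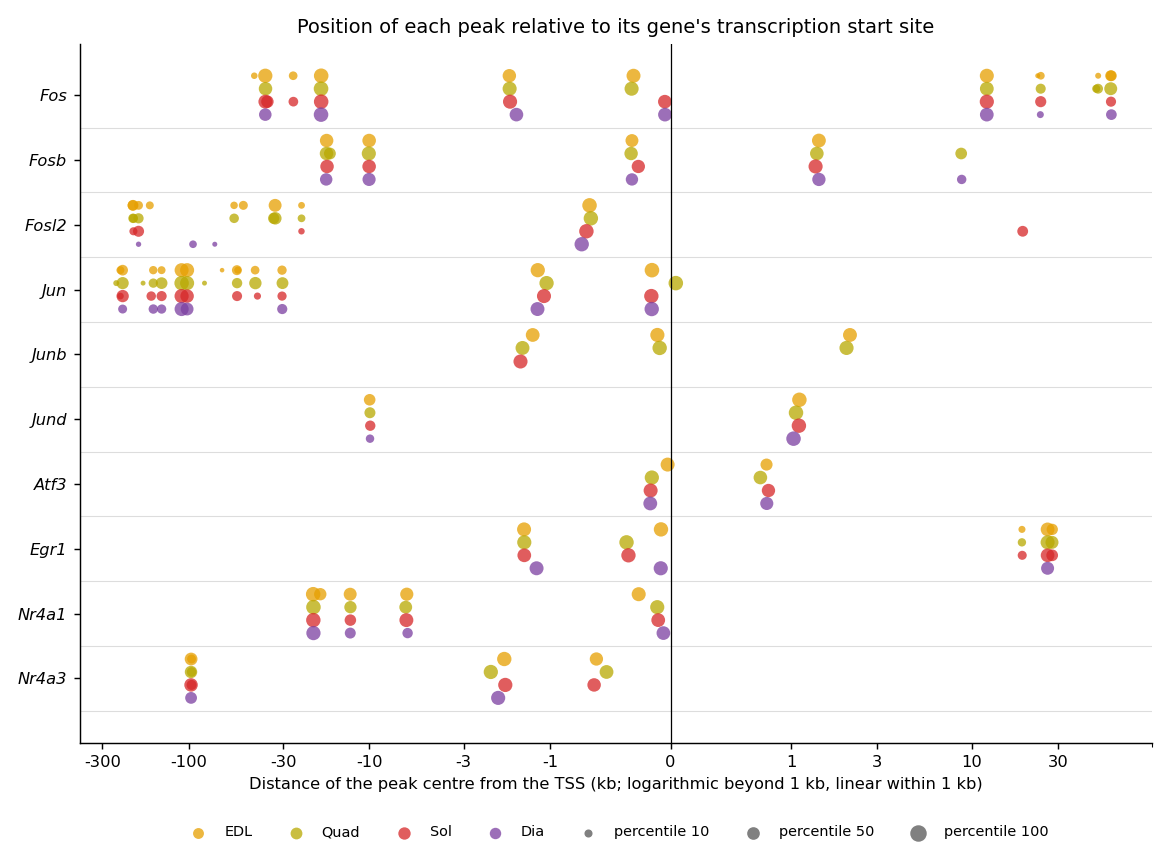
Position of each of the 199 peaks relative to the TSS of its gene (horizontal axis in kb, logarithmic beyond 1 kb), with 1 row of points per muscle and point area growing with the score percentile. Jun and Fosl2 extend to 251 and 204 kb upstream, whereas Atf3 and Junb keep all peaks within 2500 bp.

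Peaks of different lists that overlapped by at least 1 bp were merged into 75 regions. Of these, 30 held a peak in all 4 muscles, which was 40.0% (29.7 to 51.3%) against 26.9% of the 53883 regions over all genes. When a 50% reciprocal overlap was required, the share was 24.4% (16.7 to 34.2%), against 19.8% of all regions. A further 9 regions were found in 3 lists, 16 in 2 and 20 in 1, or 12.0%, 21.3% and 26.7%, against 13.1%, 17.4% and 42.6% of all regions. Within 2500 bp of the TSS, 12 of 20 regions were common to the 4 lists (60.0%, 38.7 to 78.1%, against 55.7% of all such regions). Farther away, 18 of 55 were common (32.7%, 21.8 to 45.9%), against 15.4% of all distal regions. Thus the share of common regions exceeded that of all genes by more than the counting interval at distal regions, and not near the TSS. All 20 regions found in a single list were distal, as were 55 of the 75 regions in all. Their median percentile was 21.2 and their highest 69.3. The same values are not given here for the single-list regions of all genes. Regions absent only from Dia numbered 8 (10.7%, against 8.09% of all regions) and those absent only from Sol 1 (1.33%, against 2.16%). None was absent only from EDL or only from Quad, against 1.72% and 1.09% of all regions, so these counts were near the general pattern. EDL and Quad shared 69.1% of the regions held by either (47 of 68, 57.4 to 78.8%), against 52.8% over all genes. Quad and Sol shared 63.5% (51.1 to 74.3%, against 46.0%), EDL and Sol 60.6% (48.5 to 71.5%, against 53.7%) and Sol and Dia 58.5% (45.1 to 70.7%, against 49.4%). The lowest shares were 52.5% for Quad and Dia (40.2 to 64.5%, against 39.2%) and 52.4% for EDL and Dia (40.3 to 64.2%, against 47.6%). The intervals of all 6 pairs overlapped, and the share over all genes lay below the interval for the 3 pairs with Quad and inside it for the others. At 50% reciprocal overlap Quad and Sol were highest at 53.7% (41.9 to 65.1%), above EDL and Quad at 49.4% (38.5 to 60.3%). These intervals overlapped widely, so the order of the pairs is not settled. Pair shares over all genes under this rule are not given here. The pairs have lists in common and are not independent of each other.

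**Figure D3:**
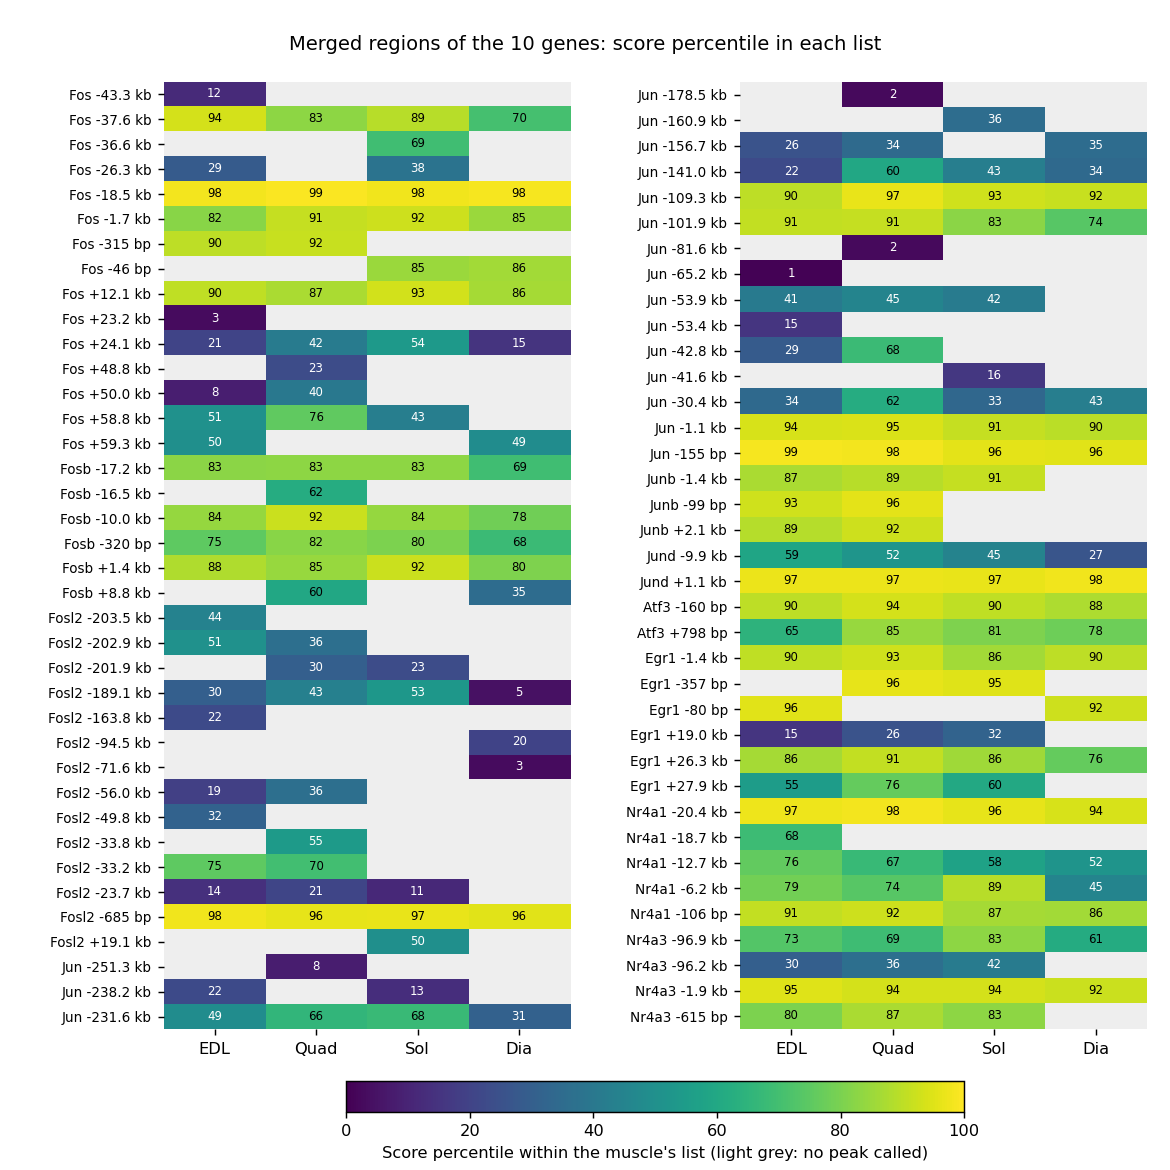
Score percentile (colour and number) of the 75 merged regions in the 4 lists, each region named by its gene and the median distance of its peaks from the TSS, with light grey where a list had no peak. A set of 7 bright rows stay at percentile 90 or above in all muscles, among them Fos at 18.5 kb upstream, whereas the Junb rows are empty in Dia.

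Fos, which encodes the inducible partner of Jun proteins, had its strongest peak 18.5 kb upstream of the TSS, at chr12:85455282-85455537. The score there was 26.3 in EDL (95% counting interval 23.2 to 29.6), 31.4 in Quad (27.6 to 35.6), 24.3 in Sol (21.4 to 27.5) and 26.1 in Dia (23.0 to 29.5). These scores ranked at percentiles 98.3, 99.3, 97.9 and 98.5, so the region stood near the top of every list, above the promoter of Fos in all of them. The other common regions of Fos were less even. The region 37.6 kb upstream had percentiles of 93.6, 82.9, 89.2 and 70.4 in EDL, Quad, Sol and Dia. The region 1.67 kb upstream had percentiles of 82.4, 91.3, 92.2 and 84.8, and that 12.1 kb downstream had 90.5, 87.1, 92.98 and 86.4. The weakest common region, 24.1 kb downstream, ranged from percentile 15.0 in Dia to 53.7 in Sol. The remaining 10 of the 15 Fos regions were not held by all muscles. They included weak peaks 23.2 and 43.3 kb from the TSS in EDL alone, at percentiles 2.97 and 11.9.

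The Fos promoter peak was placed differently in the 4 muscles. It was centred 307 bp upstream of the TSS in EDL and 323 bp upstream in Quad, at percentiles 89.9 and 91.5. In Sol and Dia it was centred 47 and 46 bp upstream, at percentiles 84.8 and 86.1. The 2 pairs of peaks lay 40 bp apart without overlap, so that they count as different regions although each muscle had a Fos promoter peak. The CArG box CCATATTAGG printed above, 304 bp upstream, was therefore inside the EDL and Quad peaks only. Within a list, no 2 peak centres lay closer than 341, 290, 316 and 335 bp in EDL, Quad, Sol and Dia. The 2 Fos promoter positions are closer together than that. Lack of a peak at the other position therefore does not show that the chromatin there was less open.

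Fosb, a Fos paralogue whose truncated product accumulates under repeated stimulation, had common regions at its promoter, in its first intron and at 2 distal places. The promoter region at chr7:19310209-19310481 had percentiles of 75.4, 82.1, 80.3 and 68.1 in EDL, Quad, Sol and Dia. This was the widest spread of a promoter among the 7 genes with a promoter peak in all lists, although the scores of 10.5, 11.9, 11.8 and 9.87 had overlapping counting intervals. Its CArG box, 268 bp upstream, lay inside the peak of every muscle. The intron region 1.41 kb downstream of the TSS ranked higher than the promoter in each list, at 88.2, 84.7, 92.0 and 80.5. The region 10025 bp upstream had percentiles of 84.3, 92.0, 84.0 and 78.4. The region 17.2 kb upstream had 82.7, 82.9, 83.1 and 69.3, and held the printed AP-1 motif, which lay inside the peaks of EDL, Quad and Dia but not of Sol.

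Fosl2, the gene of the Fos family member FRA2, had 14 regions of which 2 were common. Its promoter region, 685 bp upstream of the RefSeq start, scored 24.9, 22.0, 21.9 and 20.9 in EDL, Quad, Sol and Dia, at percentiles 97.8, 96.3, 96.7 and 95.6. A GENCODE vM21 start of Fosl2 lay inside this region. The AP-1 motif there was within the EDL, Quad and Sol peaks. The other common region, 189 kb upstream, was weak and uneven, with percentiles of 30.1, 43.4, 52.8 and 4.66, the widest spread of all 30 common regions. Introns of the neighbouring gene Babam2 held 14 of the 26 Fosl2 peaks, so the assignment to Fosl2 there rests on the nearest TSS alone. The EDL and Quad lists shared a region 33.2 kb upstream at percentiles 75.4 and 69.8 that had no peak in Sol or Dia.

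Jun, which encodes the central AP-1 subunit, had 18 regions, 7 of them common. The promoter region scored 27.6 in EDL (24.5 to 31.0), 26 in Quad (22.5 to 29.8), 20.5 in Sol (17.8 to 23.4) and 21.1 in Dia (18.3 to 24.1), at percentiles 98.7, 98.1, 95.8 and 95.7. The EDL score lay above those of Sol and Dia with no overlap of counting intervals. The promoter peak was centred 154, 159 and 156 bp upstream in EDL, Sol and Dia but 44 bp downstream in Quad, and only the Quad peak took in the MEF2 motif 28 bp upstream of the TSS. A second region 1.12 kb upstream had percentiles of 94.0, 94.5, 91.1 and 89.5. The strongest distal regions of Jun lay at chr4:95161351-95161606, 109 kb upstream, and at chr4:95153968-95154200, 102 kb upstream. The first had percentiles of 90.2, 96.7, 92.8 and 91.5 in EDL, Quad, Sol and Dia, and the other 90.8, 91.3, 82.7 and 74.1. The remaining common regions of Jun, 30.4, 141 and 232 kb upstream, stood between percentiles 22.3 and 67.9.

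Junb, whose product often opposes Jun, was the only one of the 10 genes without any peak in Dia. Its promoter region at chr8:84978744-84978961 scored 17.4 in EDL (15.0 to 20.1) and 21.4 in Quad (18.3 to 24.9), at percentiles 92.9 and 96.0, and had no peak in Sol or Dia. The region 2.07 kb downstream, at the transcription end, was likewise present in EDL and Quad, at percentiles 89.0 and 92.4, and absent from Sol and Dia. The region 1.42 kb upstream was present in EDL, Quad and Sol, at percentiles 87.2, 89.2 and 91.2. All Junb peaks were thus in the upper part of their lists, from percentile 87.2 to 96.0, and the muscles split into EDL and Quad with 3 regions, Sol with 1 and Dia with none. The nearest Dia peak lay 10061 to 11419 bp from these regions. Among the 4029 regions of all genes at percentile 85 or above in EDL and Quad, 3.9% had no Dia peak and 1.19% had neither a Dia nor a Sol peak. Of the 18 such regions of the 10 genes, 4 had no Dia peak and 3 had neither. The 4 were the 3 Junb regions and the upstream Fos promoter region, which has a Dia peak 40 bp away and a Sol peak 52 bp away. The 3 with neither were this Fos region and the Junb regions at the promoter and at the transcription end. The percentile limit of 85 was chosen after the Junb values were seen. The CArG box of the upstream region lay inside the Quad and Sol peaks, and that at the gene end inside the EDL peak.

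Jund, the most constitutively expressed Jun gene, differed from its paralogues in having no peak annotated as promoter. Its strong region lay 1.09 kb downstream of the RefSeq start, in the annotated 5′ untranslated region of a Jund RefSeq transcript, and a GENCODE vM21 start of Jund fell inside it. This region scored 23.0, 23.4, 21.6 and 24.6 in EDL, Quad, Sol and Dia, at percentiles 97.1, 97.04, 96.5 and 97.9. It was among the most even regions of the 10 genes, and Dia had the highest percentile there. The CRE printed above lay within the Quad and Dia peaks. The other Jund region, 9.91 kb upstream, had percentiles of 58.7, 52.1, 44.8 and 26.5 in EDL, Quad, Sol and Dia.

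Atf3, a stress-induced basic leucine zipper factor that can pair with Jun proteins, had 2 regions, both common to the 4 muscles. The promoter region scored 15.4, 18.3, 15.6 and 15.2 in EDL, Quad, Sol and Dia, at percentiles 90.05, 93.6, 90.4 and 87.8. The EDL peak was centred 24 bp upstream and took in the MEF2 motif 18 bp upstream, whereas the other peaks were centred 155 to 168 bp upstream and did not. These positions were also closer together than any 2 peak centres of a list, so the limit given for Jun holds here. The region in the first intron, 798 bp downstream, had percentiles of 64.5, 84.7, 80.8 and 78.0, so EDL was lowest there.

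**Figure D4:**
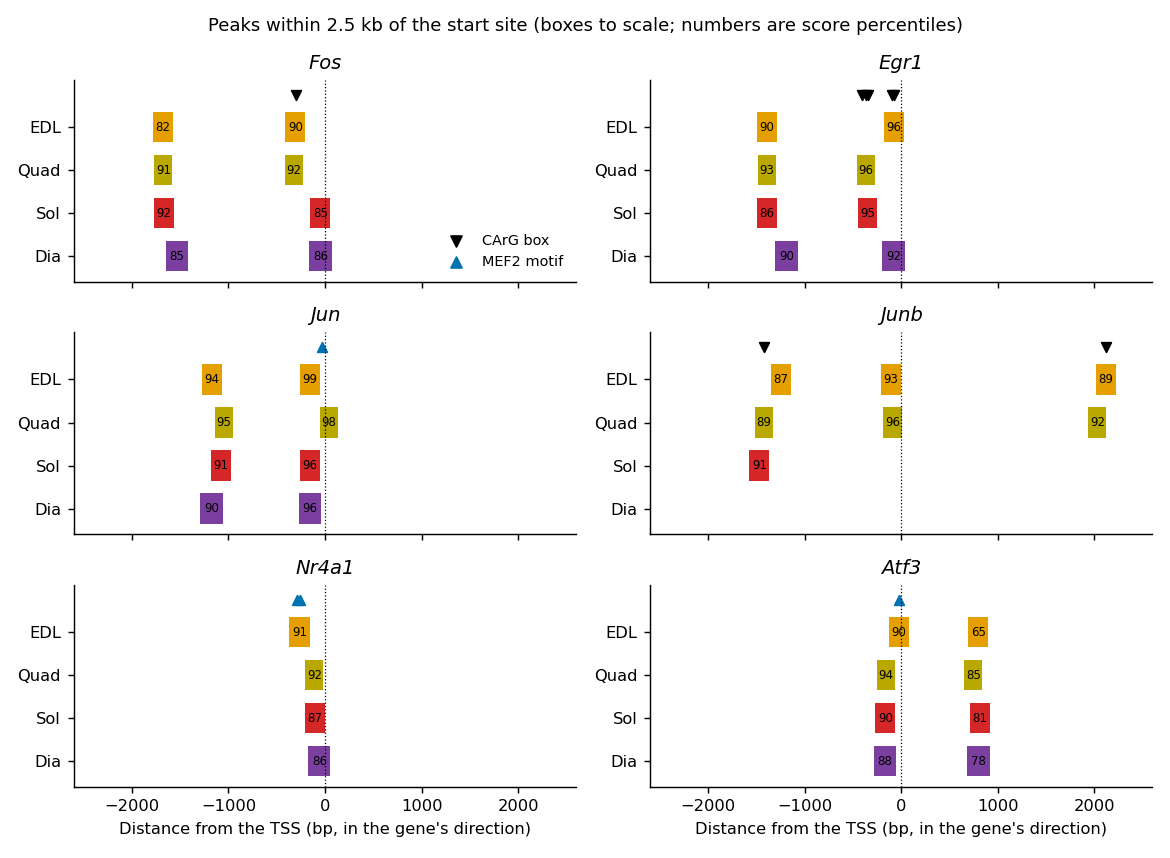
Peaks within 2500 bp of the TSS of Fos, Egr1, Jun, Junb, Nr4a1 and Atf3 in the 4 lists (boxes to scale on a horizontal axis in bp, numbers are score percentiles), with CArG boxes as downward and MEF2 motifs as upward triangles. The promoter peaks of Fos and Egr1 fall into 2 positions, and Junb has 3 peaks in EDL and Quad, 1 in Sol and none in Dia.

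Egr1, a zinc finger factor and one of the classical SRF targets, had 6 regions, 2 of them common. As at Fos, the promoter peak took 2 positions. It was centred 365 bp upstream in Quad and 349 bp upstream in Sol, at percentiles 96.3 and 94.99, and 79 bp upstream in EDL and 81 bp upstream in Dia, at percentiles 95.6 and 92.4. The peaks at the 2 positions lay 48 bp apart without overlap. As at Fos, the positions were closer together than any 2 peak centres of a list. Lack of a peak at the other position therefore does not show less open chromatin. The muscles that shared a position at Egr1 were not those that shared one at Fos. Both positions held CArG boxes, 3 in the upstream peaks at 402, 364 and 348 bp from the TSS and 2 in the peaks at the TSS at 100 and 78 bp. The region 1.39 kb upstream, which took in the GENCODE vM21 start of a longer Egr1 transcript, had percentiles of 90.3, 92.9, 86.1 and 90.01 in EDL, Quad, Sol and Dia. The common distal region lay 26.3 kb downstream, at percentiles 86.4, 90.6, 85.6 and 76.4. Regions 19.0 and 27.9 kb downstream were present in EDL, Quad and Sol and had no peak in Dia.

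The orphan nuclear receptor Nr4a1, which is induced by contraction and adrenergic stimulation, had 5 regions, 4 of them common. Its strongest region lay 20.4 kb upstream at chr15:101246297-101246592, with scores of 23.8, 26.5, 21.4 and 19.1 in EDL, Quad, Sol and Dia and percentiles of 97.5, 98.2, 96.4 and 93.8. It ranked above the promoter in every list, where the percentiles were 90.8, 92.4, 86.7 and 86.1. The region 12.7 kb upstream had percentiles of 75.8, 67.4, 57.8 and 51.6. Its MEF2 motif lay inside the peaks of all 4 muscles, and a GENCODE vM21 start of a longer Nr4a1 transcript lay 43 bp from its edge. The promoter peak was centred 264 bp upstream in EDL and 59 to 110 bp upstream in the others, and both MEF2 motifs of the promoter lay inside the EDL peak only. The limit given for Jun holds for these positions too.

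The region 6.22 kb upstream of Nr4a1, at chr15:101260467-101260824, was the most uneven in score. It scored 11.3 in EDL (9.31 to 13.5), 9.86 in Quad (7.78 to 12.3), 14.9 in Sol (12.7 to 17.4) and 7.05 in Dia (5.50 to 8.91), at percentiles 78.8, 74.0, 89.2 and 45.3. Sol was highest and Dia lowest, a 2.11-fold difference with no overlap of counting intervals. It was the only 1 of the 30 common regions whose highest score was at least 2 times the lowest, against 5.22% of the 14497 common regions of all genes. A percentile spread of at least 20 points was seen in 11 of the 30, against 48.1% of all common regions. The median ratio of highest to lowest score was 1.38 in the 30 regions and 1.39 in all. Dia had the lowest percentile in 22 of the 30, which compares with 52.3% of all common regions. Sol had the highest percentile in 9 of the 30 and Quad in 14, against 17.7% and 57.4% of all common regions.

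Nr4a3, the paralogue NOR-1, had 4 regions, 2 of them common. The region 1.86 kb upstream scored 20.1, 18.4, 18 and 17.7 in EDL, Quad, Sol and Dia, at percentiles 95.3, 93.7, 93.6 and 92.1. The promoter region 615 bp upstream was weaker, at percentiles 80.3 in EDL, 87.4 in Quad and 83.1 in Sol, and had no peak in Dia, where the nearest peak lay 1082 bp away. The region 96.9 kb upstream had percentiles of 73.4, 69.05, 83.1 and 61.4. A weaker neighbour 96.2 kb upstream was found in EDL, Quad and Sol. A promoter peak in all 4 lists was thus found for 7 of the 10 genes, the exceptions being Junb, Jund and Nr4a3, against 40.8% of all named genes.

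For each of 6 motifs, searched on both strands, the share in the peaks of these genes was compared with that of the list. With all peaks pooled, only the CArG box exceeded the list by more than the counting interval in all 4 muscles. It was found in 5 of 59 EDL peaks (8.47%, 3.67 to 18.4%), 4 of 56 Quad peaks (7.14%, 2.81 to 17.0%), 3 of 47 Sol peaks (6.38%, 2.19 to 17.2%) and 3 of 37 Dia peaks (8.11%, 2.80 to 21.3%). The share over all peaks was 1.17%, 1.03%, 1.11% and 1.21%, below the interval in every muscle. The excess lay in promoter peaks, of which 3 of 9, 3 of 9, 2 of 8 and 2 of 7 held the box, against 1.02%, 0.807%, 0.894% and 1.08% of all promoter peaks. Of the other peaks 2 of 50, 1 of 47, 1 of 39 and 1 of 30 held it, and the list values of 1.23%, 1.10%, 1.21% and 1.30% lay inside the intervals. The 11 sites lay in 8 regions of 5 genes, namely Fos, Fosb, Egr1, Junb and Jun, and 5 of them lay in the Egr1 promoter. The single Jun site lay 65.2 kb upstream, in a peak found in EDL alone at percentile 0.654. Fos, Fosb, Egr1 and Junb are textbook SRF targets, and the peaks of neighbouring lists overlap. The counts are thus not independent of each other or of the choice of genes. The AP-1 motif itself was held by 3, 2, 1 and 1 peaks, or 5.08%, 3.57%, 2.13% and 2.70%, against 7.23%, 6.89%, 7.35% and 6.86% of all peaks. These list values lay inside the intervals. The MEF2 motif was held by 8, 4, 4 and 3 peaks, with the list value of 4.40% below the interval in EDL (13.6%, 7.03 to 24.5%) and inside it in the other muscles. At the Atf3 and Nr4a1 promoters and 203 kb upstream of Fosl2, only the EDL peak took in the motif. In each of these regions another list also had a peak, placed so that it missed the motif. The EDL count thus depends on peak position.

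The EGR motif (GCGGGGGCG or GCGTGGGCG) was held by 2, 3, 3 and 3 peaks, at Egr1, Jund and Nr4a1. Its shares were 5.36% in Quad (1.84 to 14.6%) and 6.38% in Sol (2.19 to 17.2%). These lay above the list values of 1.69% and 2.08%, while the list values of EDL and Dia lay inside the intervals. Outside promoters, 2 peaks held it in each muscle, at Egr1 and Jund, in the same regions throughout. The share was 4% in EDL (1.10 to 13.5%) and 4.26% in Quad (1.17 to 14.2%). It was 5.13% in Sol (1.42 to 16.9%) and 6.67% in Dia (1.85 to 21.3%). The list values there, 0.618%, 0.566%, 0.669% and 1.01%, lay below the interval in every muscle. However, the Jund region held a GENCODE vM21 start, so it is a start region that the annotation does not call promoter. Of all promoter peaks, 4.95%, 4.96%, 5.08% and 5.69% held the motif, values inside these intervals. Among promoter peaks 0, 1, 1 and 1 held it, with list values inside the intervals. The CRE was held by 1 peak in Quad and 1 in Dia, both at Jund. The NR4A response element AAAGGTCA was held by 1 peak in Sol and 1 in Dia, both in the Jun region 102 kb upstream. In the RefSeq table of promoters, which spans 250 bp before to 50 bp after a TSS, 9 of the 10 genes were matched, all but Egr1. None of the 9 held an AP-1, CRE, CArG or NR4A element in that window, against 5.20%, 1.79%, 1.63% and 1.51% of 32851 promoters. An EGR motif was present for Fosb, Fosl2 and Nr4a1 (3.47% of all promoters), and a MEF2 motif for Atf3 and Jun (1.86%). The CArG boxes of Fos and Fosb lie just upstream of this window, whereas those 100 and 78 bp upstream of Egr1 lie within that distance.

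**Figure D5:**
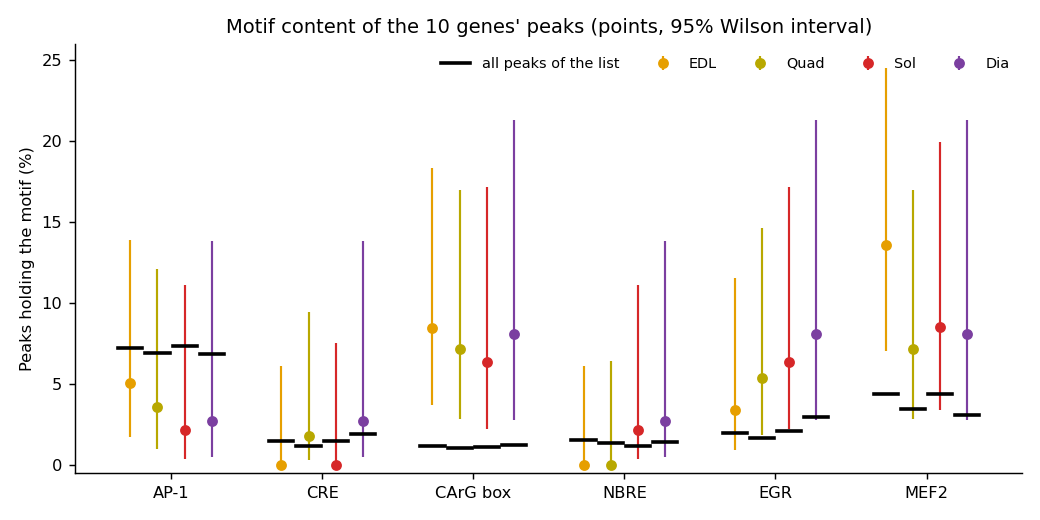
Share of peaks of the 10 genes that hold each of 6 motifs in the 4 lists (points with 95% Wilson intervals, vertical axis in percent), with the share over all peaks of each list as black lines. The CArG box points, between 6.38% and 8.47%, have intervals above the list lines in all 4 muscles.

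Genes around the AP-1 factors were taken from a list of 40 upstream regulators, signalling components and other early response genes. Peaks were assigned to 38 of them, all but Fosl1 and Egr4, and 23 of the 38 had a promoter peak in all 4 lists, against 40.8% of all named genes. Any peak was present at 36, 38, 37 and 35 of the 38 in EDL, Quad, Sol and Dia. Over the 17157 named genes the numbers were 13985, 15575, 13961 and 12919. The 38 genes held 133, 174, 113 and 93 peaks, so that here Quad, which also had the longest list, was highest. The largest differences were at Mkl2, a coactivator of SRF, with 11, 17, 6 and 6 peaks, and at the early growth-inhibitory factor Klf10, with 12, 12, 7 and 5. Klf4 held 17, 22, 17 and 16 peaks, more than any of the 10 genes. The phosphatase gene Dusp1 held 6, 8, 3 and 4 peaks, the ternary complex factor Elk3 6, 6, 5 and 1, and the matricellular gene Ctgf 5, 7, 5 and 3. Mapk14, which encodes p38 alpha, held 1, 5, 2 and 1, and the SRF coactivator Mkl1 held 5, 5, 4 and 1. These 8 were named for the size of their differences, and Rhob, with 5, 7, 3 and 4, had as large a difference as Ctgf, Mapk14 and Mkl1.

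Markers of several cell types also had their fewest peaks in Dia, those of adipocytes excepted. Dia also had the shortest list, at 21582 peaks against 30136 in EDL, 40337 in Quad and 28784 in Sol. The mean over all named genes was 1.76, 2.35, 1.68 and 1.26 peaks in EDL, Quad, Sol and Dia, so part of these differences goes with list length. A promoter peak was found for 8, 9, 7 and 5 of 14 skeletal muscle fibre genes and for 5, 6, 6 and 2 of 7 endothelial genes, in the order EDL, Quad, Sol and Dia. The endothelial genes held 36, 39, 37 and 24 peaks, and the 6 fibroblast genes 15, 19, 10 and 2. The 6 leukocyte genes held 6, 6, 2 and 1 peaks, the 5 smooth muscle genes 8, 16, 5 and 4, the 4 satellite cell genes 4, 10, 4 and 2 and the 4 adipocyte genes 3, 2, 1 and 4, and no leukocyte, satellite cell or adipocyte gene of the lists had a promoter peak. Fibre type genes did not all follow the muscle labels. Among slow fibre genes, Myh7 had 2 peaks, both in Sol, whereas Tnnt1 had its only peak in Quad and Tnni1 had 1 in EDL and 1 in Sol. Among fast fibre genes, Myh4 had a promoter peak in EDL and Quad, Tnni2 in EDL, Quad and Sol, and Tnnt3 in Quad and Sol. Whether the differences at the 10 genes follow the mixture of cells was not tested. Inferred from the steps between scores, and assuming scaling to 10 M tags (M, mega), the libraries held 104 M, 78.1 M, 105 M and 99.3 M tags. The lowest-scored peaks then held 34, 25, 32 and 36 tags. Signal below a library's threshold leaves no peak in its list.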

How the data were processed

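Nuclei of powdered frozen muscle were transposed and, per the labels' processing notes, the authors aligned reads to mm10 with Bowtie2 and called and annotated peaks with HOMER. At most 1 tag was kept per start position. Tn5 offsets and the removal of mitochondrial reads are not given in the sources used here. The deposited Peak Score is a signal, the tag count of a peak scaled to library size. A deposited fraction per peak, a measure of how closely its tags are centred, entered no result. Peak ends lay 208, 188, 206 and 232 bp after their starts in EDL, Quad, Sol and Dia, except at 1 Sol peak, and read totals were not used.

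Groups followed the tissue label, with 1 library per muscle. The 10 genes, the lists of related genes and markers, and the comparisons were chosen with earlier results of these data known. All 10 genes were described with every peak, at most 8 of the related genes were named by their largest difference in peak number, and sequences were printed for promoter peaks, those of Egr1 excepted, with an AP-1, CRE, CArG, NR4A or MEF2 site and for common distal regions with an AP-1 motif, with additions named in the text. The genes most like the one with the widest promoter spread were also computed, and that result is not reported here. Peaks were joined at 1 bp of overlap, percentiles were midranks within a list, shares carry Wilson intervals and scores exact Poisson intervals on inferred tags, all covering counting error only. The distances of all 199 peaks matched RefSeq starts. Motifs were searched in GRCm38.p6 sequence with pysam 0.24.0, and the steps were tested on simulated peaks. Python 3.11.15, pandas 2.3.3 and matplotlib 3.10.9 were used. Other overlap rules, score limits and promoter windows were tried.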

Additional observations from a re-analysis of the deposited data

How the results depend on the processing

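Of 66 values recomputed under other settings, 54 stayed within their counting interval or within 1.5 times the count, and 12 moved. Requiring 50% reciprocal overlap lowered the share of regions common to the 4 lists from 40.0% to 24.4%, with an interval of 16.7 to 34.2% that takes in the 19.8% of all genes under the same rule. It lowered the pair shares of EDL to 49.4% with Quad, 47.2% with Sol and 37.1% with Dia, and that of Quad and Dia to 38.8%, with Quad and Sol then highest at 53.7%. Without Dia, a setting chosen after seeing the data, 52.1% of regions were common to the other lists. Leaving out a list can only keep or raise this share, and the value over all genes is not given here. The rise therefore shows nothing about Dia at these genes. In the upper 50% of its list EDL held 36 peaks of the 10 genes in place of 59, below the 41 of Quad. Ranked among promoter peaks alone, the median promoter percentile was 75.7, 78.9, 71.5 and 74.6 in EDL, Quad, Sol and Dia. Without promoter peaks, 0% of the Sol peaks held an AP-1 motif (0 of 39, which allows up to 7.69% by a limit of 3 counts and 8.97% by the Wilson interval), against 9.69% of all such Sol peaks. No paired analysis was possible because each muscle had 1 library. The lowest-scored peaks held 25 to 36 tags. Of the 30 common regions, 28 overlapped in every pair of lists, whereas those at Jun and Nr4a3 were joined through another list.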
